A study of Mus musculus with 4 samples.

Results

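Calcium-binding protein and neuropeptide genes divide hippocampal neurons into types. The 9 genes described here, chosen by symbol, are the calcium-binding protein genes Calb1, Calb2 and Pvalb, the neuropeptide precursors Sst, Vip, Cck, Npy and Tac1, and Reln, which encodes the secreted glycoprotein reelin. All 9 were found among the 55403 features of the count tables; Calb1, for example, lies at chr4:15881264-15908064, Calb2 at chr8:110137502-110168210, Vip at chr10:5639218-5647617 and Reln at chr5:21884454-22344702 (GRCm38), all protein-coding genes. Their unique molecular identifiers (UMIs, 1 per captured RNA molecule) were followed in 5 classes of neuron nuclei named from marker genes that hold none of the 9, and clustering was also done without them. The classes held 3646 dentate granule-like, 822 CA pyramidal-like, 736 other excitatory, 464 inhibitory and 423 Cajal-Retzius-like nuclei, or 6091 of 29616 nuclei kept in all.

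The study sequenced RNA of nuclei from frozen hippocampus of aged mice in 4 libraries: 1 labelled WT, 2 labelled PS19 and 1 labelled TG_PS19. PS19 mice carry human MAPT (tau) with the P301S change under the Prnp promoter on a B6;C3 background, and WT mice lack it. TG_PS19 mice carry the same tau transgene and also human SORL1, which encodes the sorting receptor SORLA, inserted at Rosa26 under a CMV and beta-actin promoter that is not restricted to neurons. The lines were crossed and littermates compared, tissue of each group was pooled, and the labels used here give no exact age, sex or number of animals per pool.

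Nothing in the labels says that the PS19 libraries came from different animals, so p-values may measure technical spread only. WT and TG_PS19 had 1 library each, and every test assumes that they vary like the PS19 pair. The libraries held 4643 to 12762 barcodes and 20064025 to 48670533 UMIs, and 5 to 32 barcodes were shared between pairs of libraries. In neurons human MAPT was at 0 CPM (counts per 1000000 UMIs of the class or group) in WT, 27.7 and 26.4 in PS19 and 18.3 in TG_PS19, and human SORL1 at 33.5 in TG_PS19 and at most 0.05 elsewhere, which goes with the labels. Of TG_PS19 neuron nuclei, 1135 held Xist UMIs without Y-linked ones and 463 the reverse, against 1 to 4 and 727 to 2090 in the other libraries. By these genes TG_PS19 held nuclei of both sexes and the other libraries nearly all male ones. Comparisons with TG_PS19 were therefore repeated with its nuclei called male alone. For the calcium-binding protein, neuropeptide and reelin genes followed here, the result is given where it changes a call. For other genes only totals are given. Calls by edgeR in TG_PS19 against PS19 went from 1691 of 63974 tests to 897 of 58580. Against WT they went from 779 to 371 of the same tests. In summed counts, fewer cells of a kind and less RNA per cell cannot be told apart.

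Calbindin (Calb1), calretinin (Calb2) and parvalbumin (Pvalb) bind calcium through EF-hand domains and buffer its rise in the cytoplasm. Calbindin is abundant in mature dentate granule cells, and the other calcium-binding proteins and the peptides mark kinds of GABAergic interneuron, which store peptides in dense-core vesicles and release them beside GABA. Reelin is secreted by Cajal-Retzius cells and some interneurons and acts through the lipoprotein receptors Vldlr and Lrp8, with Dab1 as the intracellular adaptor.

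Several of these peptide precursors are known targets of the cyclic AMP response. The sequences just before their start sites are shown where they held its motif or a part of it. In the 100 bases before the RefSeq start, TGACGTCA or its parts TGACG and CGTCA were searched on both strands. The table held 8 entries for 7 of the 9 genes, without Calb1 and Calb2. The windows run 5′ to 3′ on the gene's strand, with the match in capitals (RefSeq, GRCm38.p6). They were those of Sst at chr16:23890874-23890903 (minus strand), Vip at chr10:5639126-5639155 (plus strand), Cck at chr9:121495725-121495754 (minus strand) and Tac1 at chr6:7555005-7555034 (plus strand).
Sst: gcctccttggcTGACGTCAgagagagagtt
Vip: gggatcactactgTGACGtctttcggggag
Cck: tcctgctggactgCGTCAgcactgggtaaa
Tac1: ggctctacaggctCGTCAcgcctgagataa
The match began 48 bases before the start in Sst, 79 in Vip, 47 in Cck and 43 in Tac1, and only Sst held the full TGACGTCA. Npy, Reln and both Pvalb entries had no match in that window. Of 32851 promoter entries, 1.15% held the full motif and 10.5% a part of it (a full match holds both parts). A match is a description of letters, and binding was not measured.

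Between the groups, edgeR called differences in Calb2, Vip and Reln of inhibitory neurons and in Calb1 and Reln of other excitatory neurons, and none in Calb1 of granule neurons or Reln of Cajal-Retzius cells. Of the 45 pairs of gene and class, 20 had enough UMIs for the edgeR quasi-likelihood test: all 9 genes in inhibitory neurons, Calb1, Cck and Reln in the 3 excitatory classes, Npy in granule neurons and Reln in Cajal-Retzius cells. At an adjusted p of 0.05 over all genes of a class, 2 pairs were lower in PS19 than WT. These were Calb2 and Vip in inhibitory neurons, beside 0.55% of all tests of the 5 classes (0.239% higher and 0.311% lower). In inhibitory neurons alone, 97 of 12487 tests were called in either direction. In TG_PS19 against PS19, 2 pairs were higher (Calb1 and Reln in other excitatory neurons) and 1 lower (Reln in inhibitory neurons), beside 2.64% of all tests (2.19% higher and 0.456% lower). In TG_PS19 against WT, 1 was higher (Reln in other excitatory neurons) and 1 lower (Calb2 in inhibitory neurons), beside 1.22% (0.955% higher and 0.263% lower). At an unadjusted p under 0.05 the counts were 5, 9 and 4 pairs, beside 5059, 8151 and 6778 of all 63974 tests. The 3 comparisons share libraries and are given side by side, below always as PS19 to WT, TG_PS19 to PS19 and TG_PS19 to WT unless named otherwise. DESeq2 on the same sums called 0 of the 20 pairs in each comparison, with 0, 1 and 2 at an unadjusted p under 0.05. It called 0.0719%, 0.427% and 0.148% of all tests. Each call of the 9 genes below is therefore edgeR's alone, and DESeq2 results for other genes are not given. The median log2 fold change over the tested pairs was 0.004, 0.051 and 0.197 in the 3 comparisons, against 0.006, -0.011 and 0.002 over all genes.

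**Figure D1:**
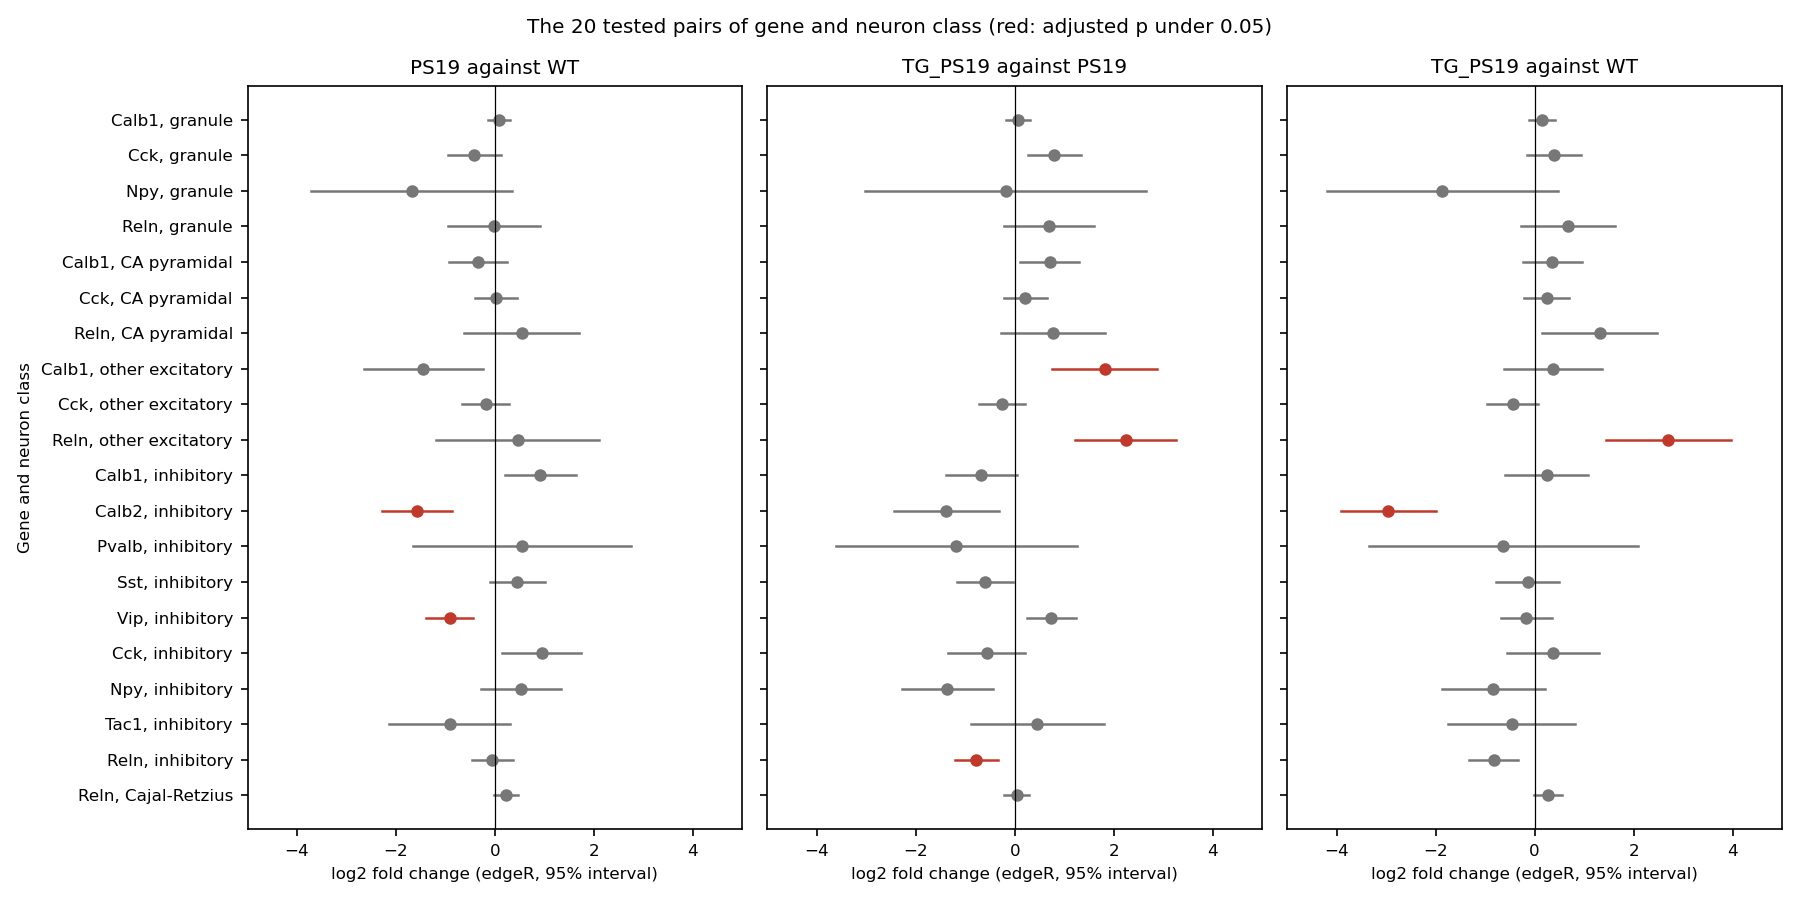
Log2 fold change (x axis) of the 20 tested pairs of gene and neuron class (y axis) in each of 3 comparisons. Points are edgeR estimates, lines 95% intervals, and red marks an adjusted p under 0.05: Calb2 and Vip lie to the left in PS19 against WT, and Reln in other excitatory neurons to the right in both TG_PS19 panels.

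Calb1 had its highest level of the 5 classes in granule neurons. There it stood at 90.1 CPM in WT (1011 UMIs), 99.9 (436) and 89.2 (531) in PS19 and 92.1 (760) in TG_PS19, with 95% counting intervals of 84.6 to 95.8, 90.8 to 109.8, 81.8 to 97.1 and 85.7 to 98.9. The 4 libraries overlapped, with WT and TG_PS19 inside the range of the PS19 pair. Set against WT, the log2 fold change was 0.09 in PS19 (95% interval of the fold 0.904 to 1.24) and 0.15 in TG_PS19 (0.927 to 1.33), and set against PS19 it was 0.06 in TG_PS19 (0.888 to 1.23), and edgeR's adjusted p was 0.819, 0.609 and 0.807. Scaling to library totals turned the TG_PS19 to PS19 value to -0.033, and moved the median gene of granule neurons by -0.10.

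The share of granule nuclei with a Calb1 UMI was 35.0% in WT, 43.9% and 46.4% in PS19 and 42.4% in TG_PS19 (median UMIs per nucleus 6474.5, 8600, 10160 and 7637). After thinning every nucleus to 1000 UMIs they were 7.09%, 10.8%, 6.76% and 8.25%, with intervals that overlapped. Oligodendrocyte-like nuclei, which should lack calbindin, had a Calb1 UMI in 0.267% to 0.389% of nuclei at median depths of 1963 to 3034.5, and in 0.107% to 0.219% after thinning. The order of the unthinned shares followed depth, and no order held after thinning.

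Within granule neurons Calb1 differed more between subclusters than between libraries. The 9 subclusters, also found without Calb1, ranged from 56.1 to 165 CPM. Subcluster 5, led by Hectd2, Fst and Camk4, stood at 154 in WT, 198 and 159 in PS19 and 155 in TG_PS19, and subcluster 7, led by Pde1a and Trhr, at 170, 142, 145 and 104. Subcluster 1, led by Sorcs1, stood at 64.3, 44.0, 58.1 and 45.1, so every library was lower there than in subclusters 5 and 7. The libraries filled the subclusters unequally: subcluster 3 held 379 of the 1620 WT nuclei, and subcluster 4 drew 393 of its 425 nuclei from TG_PS19 and was led by Xist, Tsix and SORL1. With each subcluster weighted equally, Calb1 was 91.8 in WT, 97.9 and 96.6 in PS19 and 80.6 in TG_PS19, the smallest subcluster resting on 14, 4, 4 and 4 nuclei.

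**Figure D2:**
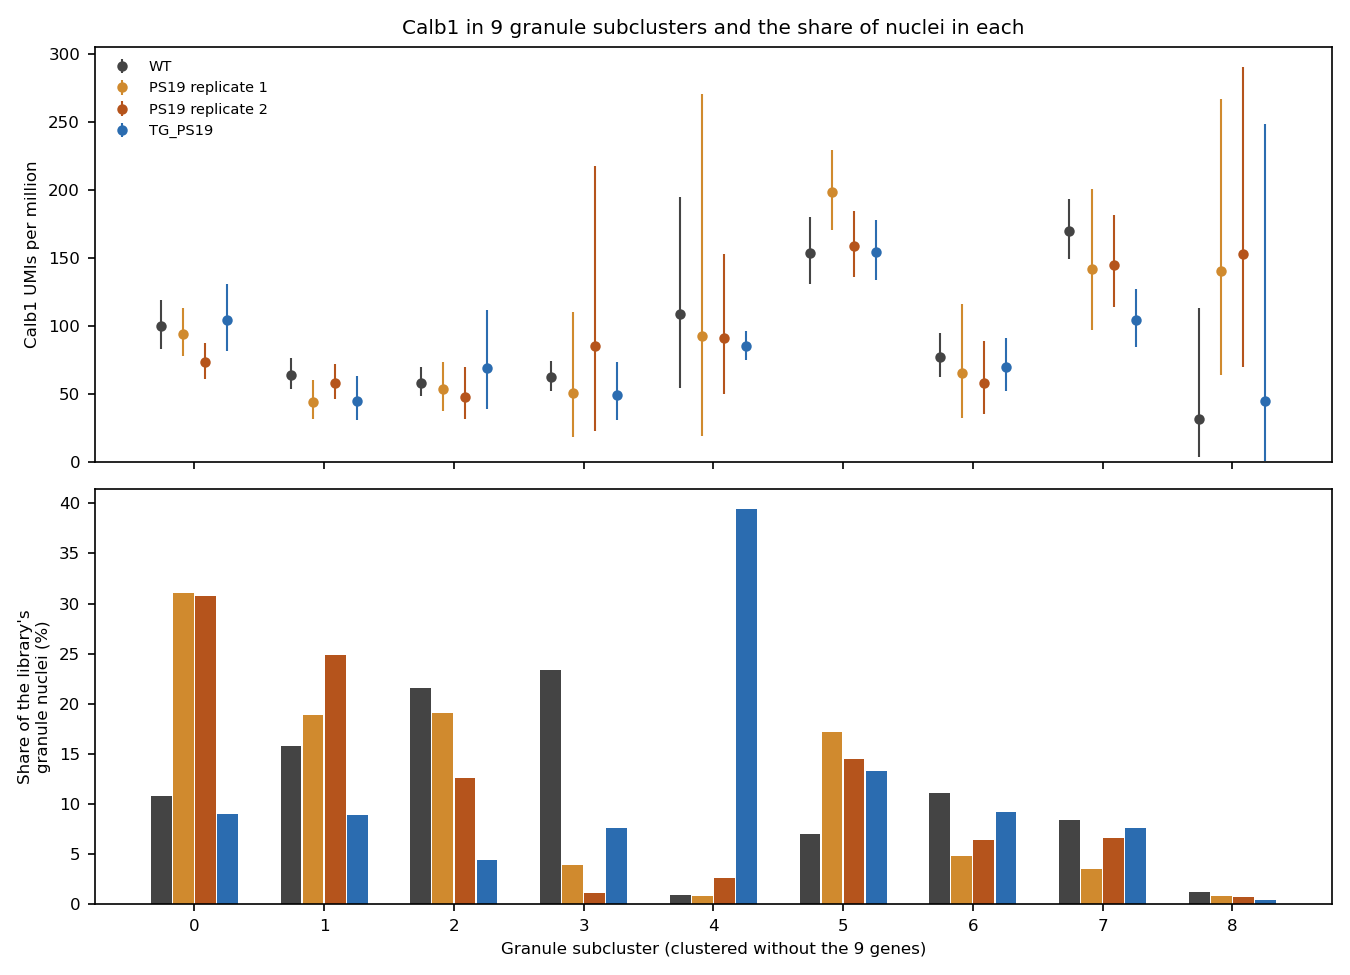
Top, Calb1 CPM (y axis) in each of 9 granule subclusters (x axis), a point per library with its exact 95% Poisson interval; bottom, the share (%) of each library's granule nuclei in the subcluster. Subclusters 5 and 7 lie above subcluster 1 in all 4 libraries, and most nuclei of subcluster 4 come from TG_PS19.

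In CA pyramidal neurons Calb1 stood at 20.9 CPM in WT, 13.3 and 20.5 in PS19 and 25.8 in TG_PS19. It was found in CA1-like nuclei, at 26.7, 17.5, 29.5 and 35.9, and in the 162 unassigned CA nuclei, at 28.1, 18.0, 27.5 and 18.6, and was 0 in the 148 CA2/3-like nuclei of all 4 libraries. The log2 fold change in the whole class was -0.34 for PS19 over WT, 0.70 for TG_PS19 over PS19 and 0.36 for TG_PS19 over WT, and none was called by edgeR (adjusted p 0.852, 0.321 and 0.726).

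In other excitatory neurons, a mixed class with subicular and cortical markers, Calb1 was 11.4 in WT, 3.82 and 4.40 in PS19 and 14.0 in TG_PS19. Both PS19 libraries lay below the other libraries. TG_PS19 was higher than PS19 by 1.82 on the log2 scale (SE 0.54, adjusted p 0.0325 by edgeR), on 40 UMIs against 4 and 6, and the PS19 to WT difference of -1.45 was not called (adjusted p 0.529). Subcluster 5, led by Cntnap5a and Trps1, held 12 of 19 WT UMIs, 3 of 4 and 4 of 6 PS19 UMIs and 19 of the 40 in TG_PS19. Within it Calb1 was 40.2, 20.3, 37.8 and 40.6 CPM, and the subcluster had 25, 8, 7 and 35 nuclei. Subcluster 8, without any Calb1 UMI, had 0 nuclei in WT, 19 and 25 in PS19 and 3 in TG_PS19. The call was lost with DESeq2 and when only the TG_PS19 nuclei called male were kept, although the log2 fold change stayed between 1.74 and 1.88 over 8 other settings, these included. How far the makeup of the class carries the difference was not tested.

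In inhibitory neurons Calb1 was 24.1 in WT, 58.7 and 36.5 in PS19 and 27.2 in TG_PS19. It was not called in any comparison (adjusted p 0.466, 0.581 and 0.961 by edgeR), although both PS19 libraries lay above the others.

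The inhibitory nuclei fell into 11 subclusters. Of the 464 nuclei, 128 had the markers of the Lhx6/Nxph1 type, to which most somatostatin and parvalbumin cells belong, 165 those of the Adarb2 type, to which Vip, Cck and neurogliaform cells belong, and 171 in 5 subclusters matched neither. These last nuclei were spread unevenly: subcluster 7 (led by Spon1 and Etv1) had 36 nuclei in WT, none in PS19 and 6 in TG_PS19, subcluster 4 (Lgr5, Foxp2, Trh) 29, 7, 3 and 9, and subcluster 3 (Cpa6, Prkcd) 3, 2, 6 and 38. Subcluster 9 was led by Ebf2 and Ebf3 and had no Gad1 UMI, which goes against the inhibitory name. Subcluster 10, with 8 nuclei in WT, 0 and 1 in PS19 and 3 in TG_PS19, was led by Mertk, Gpc5, Slc1a2 and Gli3, known as astrocyte genes, and held 28 Vip and 63 Reln UMIs. The summed level of inhibitory markers in the class was 9669 CPM in WT, 7144 and 9423 in PS19 and 7855 in TG_PS19, and that of astrocyte markers 434, 110, 160 and 271.

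**Figure D3:**
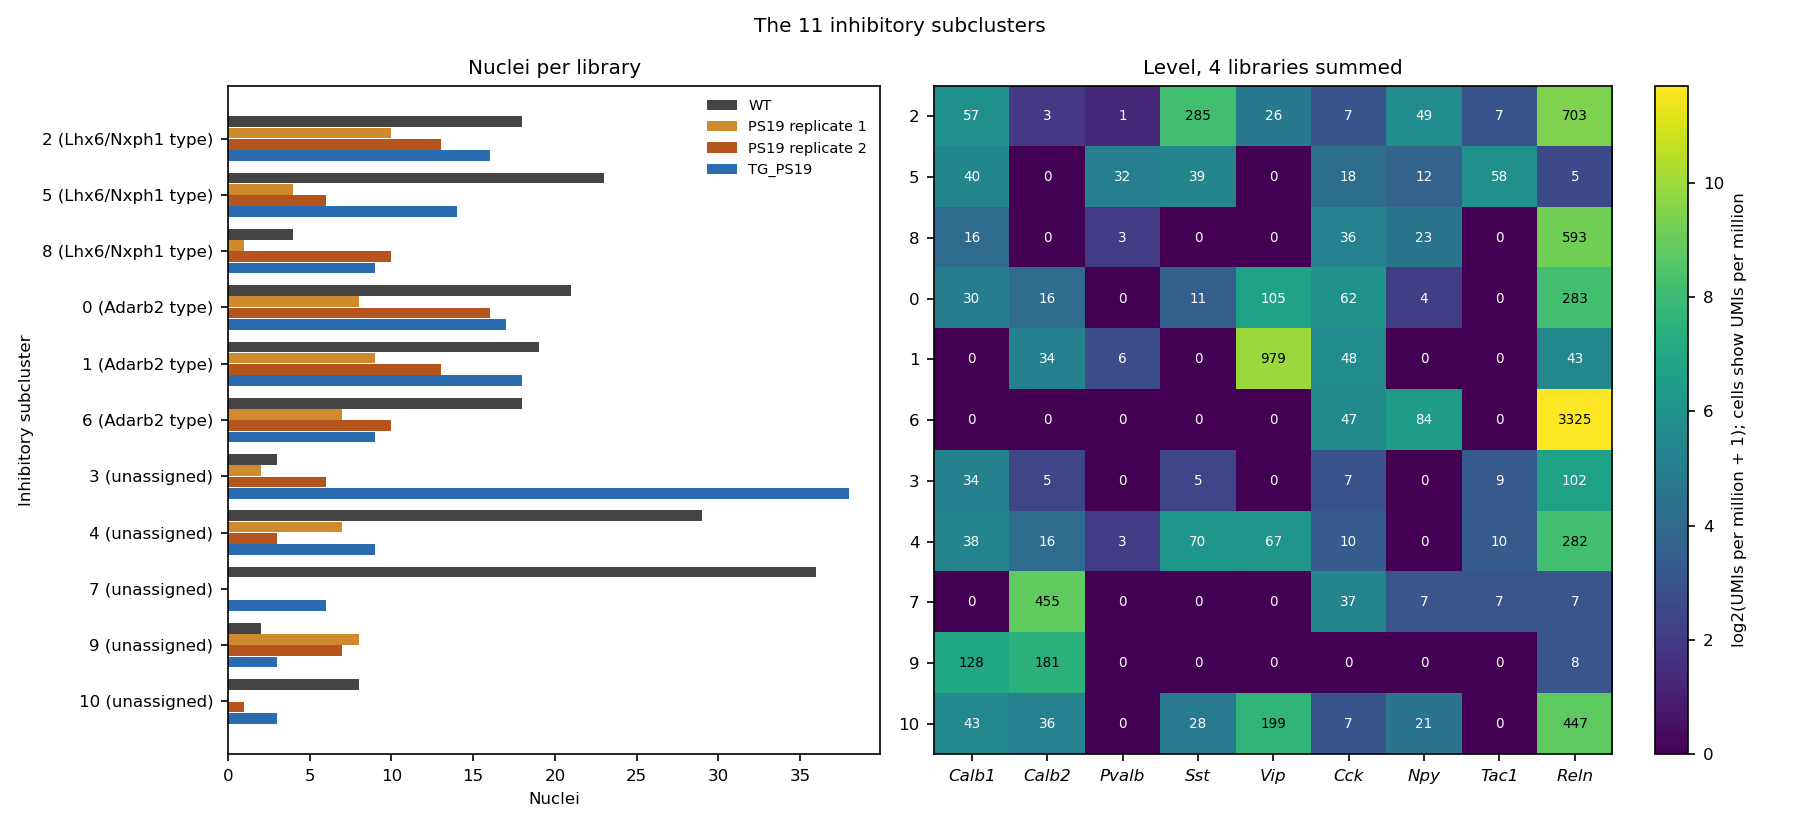
Left, nuclei (x axis) of each library in the 11 inhibitory subclusters (y axis); right, level of each of the 9 genes (columns) in the same subclusters, as CPM over the 4 libraries (numbers) and as log2 of that value plus 1 (colour). Vip peaks in subcluster 1, Reln in 6, Sst in 2 and Calb2 in 7, of which 36 nuclei come from WT and none from PS19.

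Calb2 was lower in the inhibitory neurons of both tau genotypes. It stood at 61.4 CPM in WT (79 UMIs), 28.5 (16) and 15.4 (16) in PS19 and 7.41 (9) in TG_PS19, so WT was highest and TG_PS19 lowest. The counting interval of WT (48.6 to 76.6) lay above all others, while that of TG_PS19 (3.39 to 14.1) overlapped that of the second PS19 library (8.78 to 24.9). By edgeR it was lower in PS19 than WT by a log2 fold change of -1.58 (SE 0.36, adjusted p 0.0039), and in TG_PS19 than WT by -2.96 (SE 0.49, adjusted p 1e-06), while the TG_PS19 to PS19 difference of -1.38 was not called (adjusted p 0.263). Without the first PS19 library the PS19 to WT value was -1.97, and without the second -1.11.

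Calb2 UMIs were spread unevenly over the subclusters, and how far the makeup of the class carries the Calb2 differences was not tested. Subcluster 7, without a PS19 nucleus, held 58 of the 79 WT Calb2 UMIs and 3 of the 9 in TG_PS19. Another 10 of 16 in each PS19 library came from subcluster 9, the one without Gad1. In Adarb2-type nuclei, where calretinin interneurons are expected, Calb2 was 14.0 in WT, 25.7 and 14.2 in PS19 and 12.7 in TG_PS19, so WT lay inside the range of the others, and after the 5 unmatched subclusters were removed Calb2 had too few UMIs to be tested. Both calls were also lost after thinning, at log2 fold changes of -2.06 against WT in PS19 and -2.29 in TG_PS19, and the TG_PS19 to WT call with male nuclei alone, at -1.92. With doublets kept both calls held, at -1.38 and -1.44. Shares of inhibitory nuclei with a Calb2 UMI were 20.4%, 16.1%, 10.6% and 5.63%, at median depths of 5853, 8050.5, 11090 and 7797.5, and 7.73%, 5.36%, 1.18% and 1.43% thinned, against at most 0.299% in oligodendrocytes.

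Pvalb was scarce in these nuclei. It had 7 UMIs in WT, 8 and 4 in PS19 and 4 in TG_PS19 over all inhibitory nuclei, or 5.44, 14.2, 3.84 and 3.29 CPM, and the single high library was 1 of the PS19 pair. Of these, 5, 7, 2 and 4 UMIs lay in subcluster 5 of the Lhx6/Nxph1 type, led by Slit2 and Myo1e. Pvalb was detected in 14 of the 128 Lhx6/Nxph1-type nuclei, and no library difference was detectable at this depth (adjusted p 0.999, 0.889 and 0.973 by edgeR).

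Sst, the precursor of the inhibitory peptide somatostatin, stood at 58.3 CPM in the inhibitory neurons of WT, 129.9 and 44.1 in PS19 and 50.2 in TG_PS19. The PS19 libraries lay on both sides of the others, and 22 of the 73 UMIs of the higher one came from 1 nucleus in an unmatched subcluster. The log2 fold change was 0.46 for PS19 over WT, -0.60 for TG_PS19 over PS19 and -0.14 for TG_PS19 over WT, none of them called by edgeR (adjusted p 0.913, 0.479 and 0.973). In Lhx6/Nxph1-type nuclei the level was 156, 231, 100.2 and 120.02, with a UMI in 42.2%, 66.7%, 27.6% and 33.3% of nuclei and at most 0.772% in oligodendrocytes. Subcluster 2, led by Lypd6b and Crhbp, held 62 of the 75 Sst UMIs in WT and 50 of 73, 38 of 46 and 49 of 61 in the others.

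Vip, the precursor of vasoactive intestinal peptide, marks interneurons that mostly contact other interneurons. Shares of inhibitory nuclei with a Vip UMI were 15.5% in WT, 17.9% and 17.6% in PS19 and 15.5% in TG_PS19. Thinned they were 9.39%, 5.36%, 8.24% and 7.14%. Of the 190 WT UMIs, 34 lay in 3 nuclei of unmatched subclusters. The level of Vip in inhibitory neurons was 148 CPM in WT, 56.9 and 93.1 in PS19 and 125 in TG_PS19, with both PS19 libraries below the other libraries. PS19 was lower than WT by a log2 fold change of -0.91 (SE 0.24, adjusted p 0.0285 by edgeR). The estimate was -0.64 without the first PS19 library and -1.38 without the second. It was no longer called without the 5 unmatched subclusters (-1.01), without the low-count filter (-0.93), with doublets kept (-0.69) or after thinning (-0.93). TG_PS19 against PS19 gave 0.74, which was not called (adjusted p 0.119) but passed in matched subclusters alone (1.24) and with male nuclei (1.58), and TG_PS19 against WT -0.17 (adjusted p 0.954).

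In Adarb2-type nuclei Vip was 335 in WT, 154 and 186 in PS19 and 479 in TG_PS19, again lowest in both PS19 libraries. Among the 4 genes tested in that type, edgeR called 0 for PS19 over WT, 1 for TG_PS19 over PS19 and 1 for TG_PS19 over WT, beside 0.0533%, 0.427% and 0.213% of all genes tested there. Vip was higher in TG_PS19 than PS19 by 1.55 on the log2 scale (SE 0.31, adjusted p 0.00097), while PS19 against WT gave -0.97 (adjusted p 0.499). The call was lost without the low-count filter, after thinning (0.80) and with adjusted residual degrees of freedom, and male nuclei gave 2.44. Shares of nuclei with a Vip UMI were closer than the levels, at 39.7%, 37.5%, 33.3% and 47.7% (median depths 6450.5, 6845.5, 9660 and 6499), against at most 1.14% of oligodendrocytes. Thinned they were 24.1%, 25%, 15.4% and 25%. Vip UMIs were concentrated in few nuclei, since 38 of the 151 TG_PS19 UMIs came from 1 nucleus, and 22 of 144, 11 of 30 and 17 of 79 in the other libraries.

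Most Vip UMIs came from subcluster 1, led by Sema5b and Plpp4. Its level was 1384 in WT, 467 and 839 in PS19 and 1031 in TG_PS19. Subcluster 0, led by Cadps2, added 50 UMIs in TG_PS19 and 6, 0 and 4 in WT and PS19.

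Cck, the precursor of cholecystokinin, was found in both pyramidal and inhibitory nuclei. In CA pyramidal neurons it stood at 38.2 in WT, 46.5 and 35.4 in PS19 and 43.6 in TG_PS19, and in other excitatory neurons at 56.2, 58.3, 42.6 and 39.2. The CA values of WT and TG_PS19 lay within the PS19 range, and log2 fold changes were 0.03, 0.22 and 0.24 in CA and -0.19, -0.26 and -0.45 in other excitatory neurons, none called (adjusted p 0.619 to 0.991 by edgeR). In inhibitory neurons Cck was 18.7, 24.9, 43.2 and 23.0, and not called.

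Granule neurons had Cck at 11 in WT, 9.86 and 6.72 in PS19 and 13.2 in TG_PS19, beside 12.5, 8.72, 6.77 and 14.2 in oligodendrocytes. A Cck UMI was in 6.73%, 8.07%, 6.76% and 9.94% of granule nuclei and in 2.39%, 2.01%, 1.97% and 2.93% of oligodendrocytes, which are shallower. Thinned, the shares were 1.18%, 1.24%, 0.366% and 1.11% against 1.40%, 0.877%, 0.748% and 1.64%. The log2 fold change of 0.80 in TG_PS19 against PS19 in granule neurons was not called (adjusted p 0.0944 by edgeR). It passed with DESeq2-type size factors in edgeR, without the low-count filter and with doublets kept. Whether these UMIs came from the granule neurons was not tested.

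Npy encodes neuropeptide Y, which mossy fibres are known to gain after seizures. It stayed near 0 in granule neurons, at 1.96 in WT, 1.38 and 0 in PS19 and 0.485 in TG_PS19, where oligodendrocytes had 7.33, 2.08, 0.826 and 2.48. WT also had the highest Npy in astrocytes (6.34 against 0.299 to 0.93) and microglia (10.1 against 0 in the others), and likewise in oligodendrocyte precursor, endothelial, mural and fibroblast nuclei. In inhibitory neurons Npy was 21.8 in WT, 39.1 and 25.9 in PS19 and 11.5 in TG_PS19, the PS19 libraries being highest. The log2 fold changes of 0.52, -1.36 and -0.84 were not called (adjusted p 0.996, 0.150 and 0.750 by edgeR). In Lhx6/Nxph1-type nuclei Npy had 3 UMIs in TG_PS19 against 23, 11 and 11, and no TG_PS19 nucleus of that type had both Sst and Npy UMIs, against 7, 6 and 3. This was not called (adjusted p 0.996 against PS19 by edgeR).

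Tac1, the precursor of substance P and neurokinin A, had 20 UMIs in the inhibitory neurons of WT, 5 and 8 in PS19 and 13 in TG_PS19, or 15.6, 8.90, 7.68 and 10.7 CPM. Their counting intervals overlapped, and no comparison was called (adjusted p 0.949 to 0.953 by edgeR). Subcluster 5, the one with most Pvalb, held 18, 1, 4 and 10 of these UMIs. Pvalb and Tac1 were seen together in 1 nucleus. Each was detected in few nuclei, so this count cannot show whether they mark different cells.

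Reln was found in every Cajal-Retzius nucleus, although naming did not use it. All 423 of them had a Reln UMI, as did all that were deep enough to be thinned to 1000 UMIs, at a median depth of 2158 to 2985 UMIs, against 0.906% to 1.73% of oligodendrocytes. It stood at 8942 CPM in WT, 10182 and 10652 in PS19 and 10261 in TG_PS19, with WT lowest and TG_PS19 between the PS19 libraries. The log2 fold changes of 0.23 (95% interval of the fold 0.985 to 1.39), 0.04 (0.865 to 1.22) and 0.26 (0.986 to 1.46) were not called by edgeR (adjusted p 0.999, 0.993 and 0.995). Beside it, the summed naming markers of these cells were at 5394, 5360, 5197 and 4613, and oligodendrocyte markers at 1043, 646, 310 and 1309.

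In inhibitory neurons Reln stood at 720 in WT, 635 and 743 in PS19 and 384 in TG_PS19, which lay below all others. It was lower in TG_PS19 than PS19 by a log2 fold change of -0.78 (SE 0.22, adjusted p 0.0313 by edgeR), and -0.83 against WT was not called (adjusted p 0.0587). Removing the 5 unmatched subclusters, thinning or dropping the low-count filter ended the call, and the value ranged from -1.05 to -0.69 over 10 other settings. The value against WT passed with library totals, doublets kept, male nuclei or adjusted residual degrees of freedom.

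Reln followed a different order of libraries in each interneuron type. In the Adarb2 type it was 1845 in WT, 1380 and 861 in PS19 and 705 in TG_PS19, and TG_PS19 was lower than WT by a log2 fold change of -1.32 (SE 0.30, adjusted p 0.0089 by edgeR), a call lost without the low-count filter and with adjusted residual degrees of freedom. With only the 13 TG_PS19 nuclei called male the value was -5.33, and after thinning -1.89. In the Lhx6/Nxph1 type it was 75.8, 336, 888 and 371, with WT lowest. The difference of 3.06 between PS19 and WT there was not called (adjusted p 0.988; it passed with library totals, without the filter and with male nuclei), nor was that of 2.36 between TG_PS19 and WT (adjusted p 0.992; it passed under the same settings). In that type edgeR called 0 genes in all, 0 of the 8 tested here, with 2, 1 and 2 of them and 167, 245 and 194 of all genes at an unadjusted p under 0.05. Opposite differences in the types were not tested against each other.

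The subclusters show where reelin lay. Subcluster 6 of the Adarb2 type, led by Kit and Ndnf, genes of neurogliaform cells, held most of it, at 4380 in WT, 3333 and 2310 in PS19 and 2801 in TG_PS19. Subcluster 2, which also holds most Sst, was at 203, 520, 1399 and 454. Subcluster 8 (Hapln1, Vcan), with 4, 1, 10 and 9 nuclei in all, had 2 UMIs in WT and 0, 95 and 86 in the others.

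Reln in other excitatory neurons was higher in TG_PS19, and few nuclei carried it. It stood at 2.99 in WT, 5.73 and 2.94 in PS19 and 18.9 in TG_PS19, the last outside the range of the others. EdgeR gave 2.24 on the log2 scale against PS19 (SE 0.52, adjusted p 0.0015) and 2.70 against WT (SE 0.64, adjusted p 0.0051). Of the 54 TG_PS19 UMIs, 44 came from 6 nuclei with at least 4 UMIs each, and 39 from subcluster 5, which had 0 in WT and 2 and 0 in PS19. With male TG_PS19 nuclei alone the gene fell under the low-count filter and was not tested. Oligodendrocytes stood at 9.34 in WT, 3.74 and 3.47 in PS19 and 6.13 in TG_PS19, and a Reln UMI was in 2.02%, 4.63%, 3.28% and 4.87% of other excitatory nuclei against 1.73%, 0.976%, 0.906% and 1.32% of oligodendrocytes, at median depths of 7642 to 10333.5 and 1963 to 3034.5.

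Reln was also found elsewhere, in part in single nuclei. In CA pyramidal subcluster 5, TG_PS19 had 34 UMIs and the other libraries 0. That subcluster held 47 nuclei in TG_PS19, 9 in WT and 6 and 11 in PS19, and a difference was not tested there. How many of its nuclei held a Reln UMI is not given. In endothelial nuclei 75 UMIs of 1 PS19 library came from 2 nuclei, and in microglia 45 of 47 TG_PS19 UMIs from 1 nucleus. Oligodendrocyte precursors had 17.6 in WT, 51.7 and 62.4 in PS19 and 15.4 in TG_PS19, and these were not tested. There 1 nucleus held 50 of the 58 UMIs of the first PS19 library and another 39 of the 93 of the second, while the share of nuclei with a UMI was 5.95%, 3.75%, 5.84% and 5.44%.

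**Figure D4:**
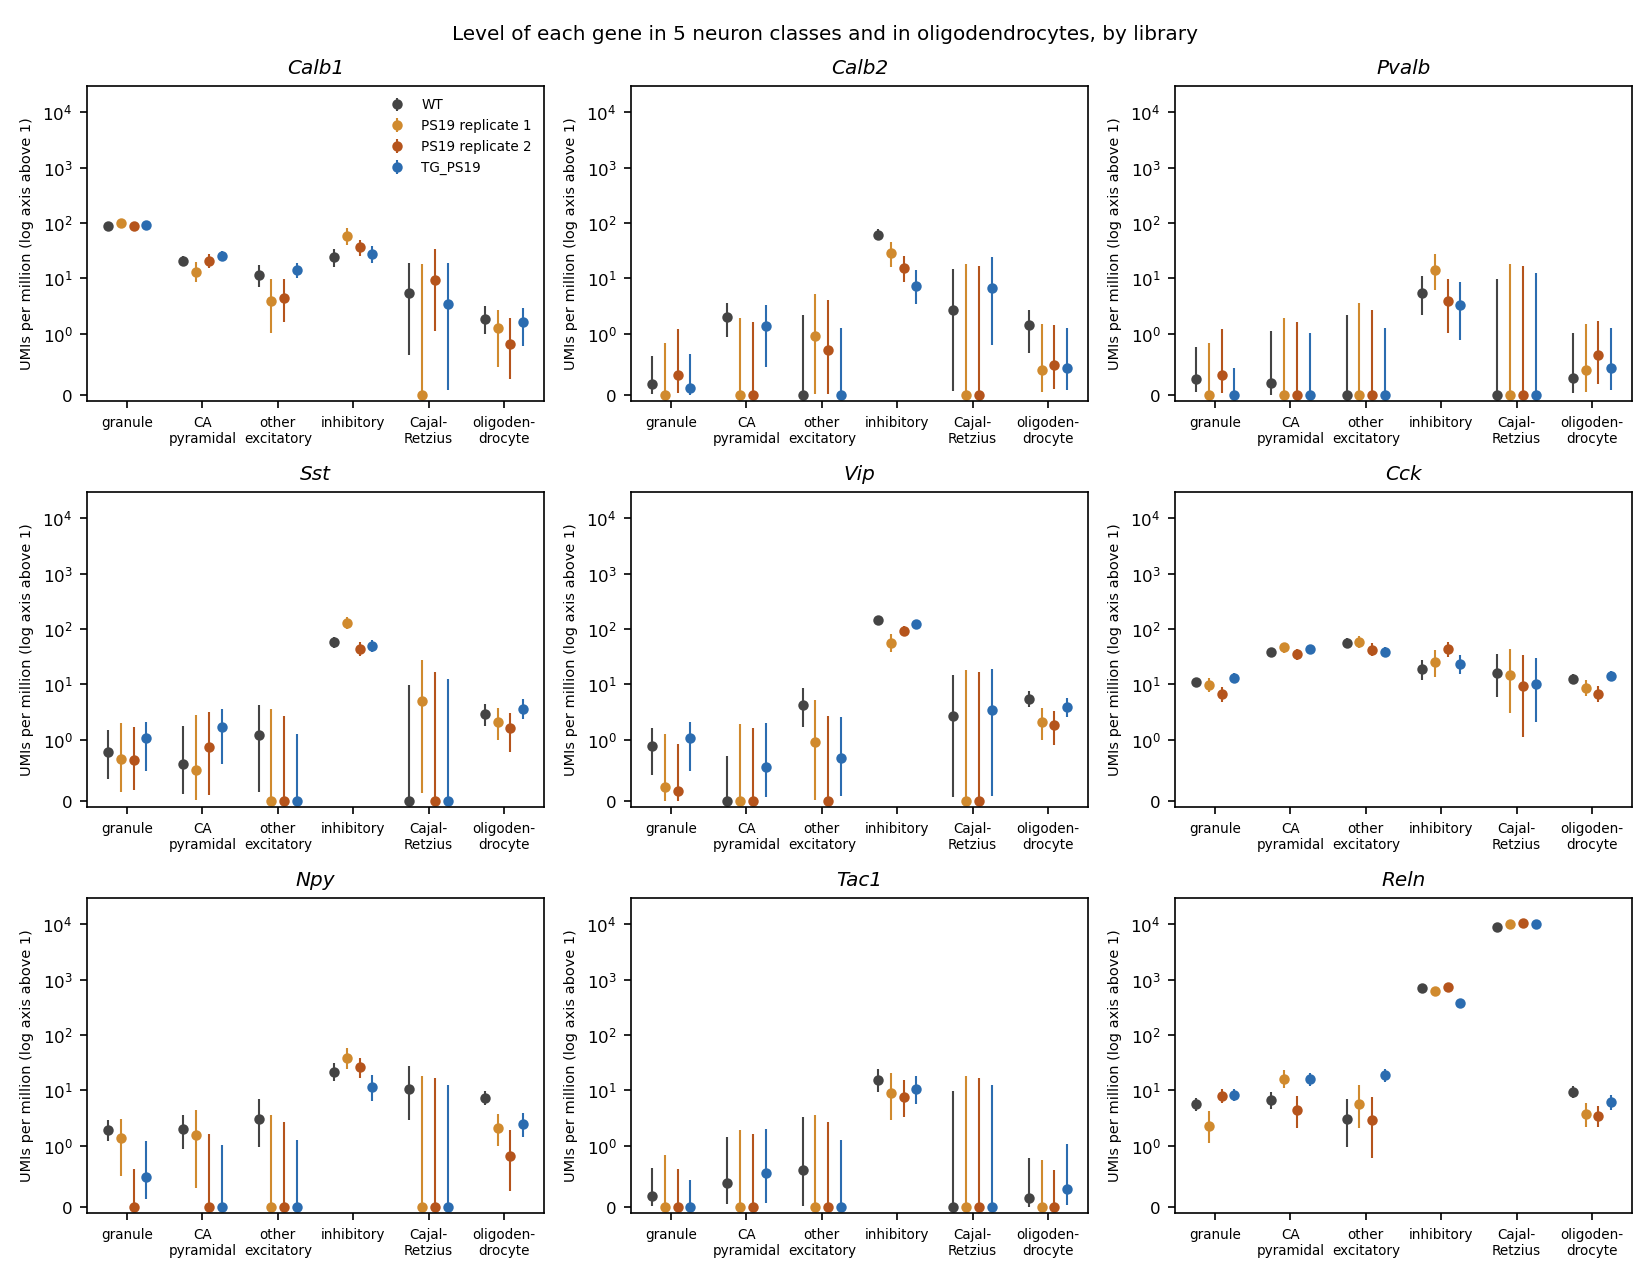
CPM (y axis, log scale above 1) of each of the 9 genes in 5 neuron classes and, for reference, oligodendrocytes (x axis), a point per library with its exact 95% Poisson interval. Calb1 is highest in granule neurons and Reln in Cajal-Retzius cells, Calb2, Pvalb, Sst, Vip, Npy and Tac1 in inhibitory neurons, and Cck in CA pyramidal or other excitatory neurons, except in the second PS19 library, where inhibitory neurons stood highest at 43.2.

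Pairs of the genes detected in the same interneurons were counted, without an expected number beside them. Of 128 Lhx6/Nxph1-type nuclei, 50 had an Sst UMI and 53 a Reln UMI, and 28 had both. Calb1 was in 28, 15 of them with Sst, and Npy in 23, 16 of them with Sst. Pvalb and Sst met in 1 nucleus, of a PS19 library, and Sst and Vip in none.

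In the 165 Adarb2-type nuclei 84 had Reln, 66 Vip, 37 Cck, 19 Calb2 and 17 Npy. Calb2 lay with Vip in 12 nuclei, and Npy with Reln in 13. Vip and Reln met in 13 nuclei and Vip and Cck in 8. The 171 unmatched nuclei had Calb2 in 43, Reln in 38 and Calb1 in 23.

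The other genes of these pathways were counted over the 5 classes, each gene counted once per class in which it was tested. These counts stand beside the shares of all tests called higher and lower given above. The lists were chosen with earlier results of these data known, so the counts are a description and no test of the lists. All TG_PS19 nuclei were kept for them, and results with male nuclei alone are not given for these genes. Of 81 tests of peptide-processing and dense-core vesicle genes, 0 were called higher in any comparison by edgeR, and 2 were lower for PS19 over WT, 1 for TG_PS19 over PS19 and 6 for TG_PS19 over WT. Scg2, which encodes the vesicle protein secretogranin II, was at 113 in granule neurons of WT, 107 and 88.0 in PS19 and 56.0 in TG_PS19, with called log2 fold changes in TG_PS19 of -0.70 against PS19 and -0.89 against WT. It was also lower against WT in other excitatory (-1.11) and inhibitory neurons (-1.11). Chgb, for chromogranin B, was at 116 in granule neurons of WT, 86.6 and 65.7 in PS19 and 72.6 in TG_PS19, with a called log2 fold change of -0.60 in PS19 against WT.

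A list of other neuropeptide precursors also held Bdnf, Igf1, Nxph1 and Crhbp, which are not neuropeptide precursors. Of its 32 tests, 1 was lower in PS19 against WT, 1 higher in TG_PS19 against PS19 and 2 lower in TG_PS19 against WT. Trh, the precursor of thyrotropin-releasing hormone, had 43 UMIs in inhibitory neurons of WT, 1 and 0 in PS19 and 5 in TG_PS19, and it is a leading gene of subcluster 4, which had 29 of its 48 nuclei in WT. Grp (gastrin-releasing peptide) in granule neurons was 17.6, 11.2, 6.55 and 16.4, higher in TG_PS19 than PS19 by 1.02 on the log2 scale, and Bdnf 103, 78.2, 74.4 and 61.6, with a called log2 fold change of -0.63 in TG_PS19 against WT.

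Of 117 tests of other EF-hand genes, 2 were higher in PS19 against WT, both in granule neurons, and 2 and 1 were lower in TG_PS19 against PS19 and WT. Hpca (hippocalcin) was at 25.9 in WT, 42.9 and 43.8 in PS19 and 36.4 in TG_PS19, and Ncs1 (neuronal calcium sensor) at 44.7, 67.2, 66.7 and 54.4, so both tau genotypes lay above WT for both genes. Of 50 tests of receptors for these peptides and reelin, 1 was called: Tacr1, the substance P receptor, in inhibitory neurons, at 12.4 in WT, 5.34 and 14.4 in PS19 and 37.0 in TG_PS19, higher against PS19 by 1.80 on the log2 scale. Markers of immature granule cells, which express Calb2, gave 37 tests and 0 calls in each comparison.

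Hilar mossy cells are another source of calretinin in mice, but no class here was named for them. Of their markers only Fgf1 was called: 2 of 31 tests were lower in PS19 against WT and 3 higher in TG_PS19 against PS19. These calls lay in CA pyramidal, other excitatory and inhibitory neurons. In the CA2/3-like nuclei (63, 20, 25 and 40) Calb2 had 10 UMIs in WT, 0 and 0 in PS19 and 4 in TG_PS19. These UMIs lay in 5 WT and 2 TG_PS19 nuclei, and Calb2 was not tested there. In inhibitory neurons Fgf1 was at 166 in WT, 62.3 and 82.5 in PS19 and 139.9 in TG_PS19, with both PS19 libraries lowest. Activity-regulated genes, which are induced by neuronal firing, gave 39 tests, of which 0 were called in PS19 against WT. In TG_PS19, 4 were higher and 3 lower against PS19, and 3 higher and 2 lower against WT. Apart from Npas4 in CA pyramidal neurons against PS19, every higher call was of Inhba, counted once per class. The lower calls were Arc and Junb in other excitatory neurons in both comparisons and Nptx2 in granule neurons against PS19.

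The genes whose levels ran most like those of 8 of the genes over 48 sums (12 classes in 4 libraries, log2 of CPM plus 1) were Grpr for Calb2 (r = 0.778), Slc32a1 for Sst (0.811) and for Npy (0.720), Gad2 for Vip (0.851) and Cacna2d2 for Reln (0.942). Dlx6 was most like Pvalb (0.953), Gm49678 most like Cck (0.844) and Fam240b most like Tac1 (0.939), but Pvalb and Tac1 never reached 20 CPM. Sums of a library share its depth, and Slc32a1, Gad2 and Cacna2d2 helped to name the classes.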

How the data were processed

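Nuclei were profiled from 4 libraries of pooled mouse hippocampus (10000 nuclei loaded per library and about 50000 reads per nucleus, per the labels). The authors deposited raw UMI counts per gene and nucleus made with Cell Ranger 7.1.0 on GRCm38, per the submitters' processing notes; the annotation release is not given in the sources used here. Nuclei with under 500 UMIs, under 300 genes or over 5% mitochondrial UMIs were removed. Those with the highest doublet scores (simulated neighbours) were also removed, their number set by library size at 0.8% per 1000 nuclei. That took 1303 nuclei (10.21% of barcodes) in WT, 172 (3.70%) and 194 (3.94%) in PS19 and 756 (7.78%) in TG_PS19. Kept nuclei were clustered (scanpy 1.11.5, leidenalg 0.10.2) into 26 clusters, named from fixed markers. The 9 genes, mitochondrial and Y-linked genes, Xist, Tsix and transgene features were left out of clustering, while other X-linked genes were not. Names are rebuilt here and mean resemblance to those markers.

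Counts were summed per class and library and tested with edgeR 4.0.16 (quasi-likelihood, TMM scaling, low-count filter, all 4 libraries, 1 residual degree of freedom, Benjamini-Hochberg over all genes of a class, 0.05). Levels are CPM, the gene's UMIs per 1000000 UMIs of the class. Intervals of levels (exact Poisson) and of shares (exact Clopper-Pearson) are at 95% and cover counting error only. Thinned shares use 1000 UMIs per nucleus. The scripts were tested on simulated data. Named genes are the 9 genes, at most 4 called genes per list, class and comparison, and the genes with the most similar levels (that for Calb1 is not reported here). The members and lists were chosen with earlier results of these data known. Alternatives were DESeq2 1.42.0, other scaling, no filter, doublets kept, finer clusters, thinned counts, TG_PS19 nuclei called male, and each PS19 library left out. Gene positions follow GENCODE on GRCm38.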

Additional observations from a re-analysis of the deposited data

How the results depend on the processing

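No paired analysis was possible because only the PS19 libraries carry replicate numbers. The number of called pairs of gene and class in PS19 against WT (2) became 0 with DESeq2, 1 without the low-count filter, 1 with doublets kept, 0 after thinning (9 pairs tested) and 0 in matched subclusters alone. That in TG_PS19 against PS19 (3) became 0 with DESeq2, 5 with doublets kept, 0 after thinning, 4 with DESeq2-type size factors in edgeR and 2 with male nuclei. That in TG_PS19 against WT (2) became 0 with DESeq2, 0 after thinning, 1 with male TG_PS19 nuclei, 1 in matched subclusters, and 3 with library totals, doublets kept or adjusted residual degrees of freedom. Some log2 fold changes changed sign, none of them called in the fit reported. Scaling to library totals gave -0.033 for Calb1 in granule neurons and -0.024 for Reln in Cajal-Retzius cells (both TG_PS19 against PS19), and Reln there was -0.088 with doublets kept and -0.075 with male nuclei. Male nuclei alone gave -0.15 and -0.50 for Calb1 in CA pyramidal neurons (TG_PS19 against PS19 and WT), and 0.19 for Sst and 0.67 for Vip in inhibitory neurons (TG_PS19 against WT). Thinning gave -0.69 and -0.45 for Cck in CA pyramidal neurons (TG_PS19 against PS19 and WT), -0.38 for Sst and 0.030 for Reln in inhibitory neurons (PS19 against WT) and 0.0068 for Sst in the Lhx6/Nxph1 type (TG_PS19 against WT). Matched subclusters alone gave -0.045 for Cck in CA pyramidal (CA1-like) neurons and -0.081 for Sst in inhibitory neurons (PS19 against WT), and 0.23 for Vip (TG_PS19 against WT). Cck in CA pyramidal neurons was -0.0016 without the filter, and Reln in inhibitory neurons 0.071 with doublets kept (PS19 against WT). The cause of these changes was not tested. Calb2 in inhibitory neurons could not be tested in matched subclusters, for lack of UMIs. Restricting to matched subclusters and adjusted residual degrees of freedom were chosen after the data were seen. The depth limits Pvalb, Tac1 and Calb2 most, with at most 20 UMIs in most libraries.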
